A study of Mus musculus with 12 samples.

Results

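The Serpina3 cluster of the mouse was followed across 4 cytokine conditions in cultured 3T3-L1 cells. The genes described are Serpina3c, Serpina3f, Serpina3g, Serpina3h, Serpina3i, Serpina3m, and Serpina3n, which are 7 of the 56941 genes in the count table. They were taken by symbol as paralogs of the cluster, and were chosen from these same libraries after their counts were seen to differ between conditions. Their values across the conditions are therefore a description and carry no test. Tests are given for single genes outside the cluster, whose lists were also chosen with earlier results of these data known. 3T3-L1 is a wild-type mouse embryonic fibroblast line that can be differentiated into adipocytes, and as 1 line it stands for no fibroblast population of the skin. Each condition had 3 libraries, made from polyadenylated RNA after 24 hours. Control cells received no cytokine, and the study describes them as unstimulated. The IL-4/13 condition received IL-4 and IL-13, each at 50 ng/mL. The inflammatory condition (Inf) received 3 cytokines, with 20 ng/mL of TNF-α, 50 ng/mL of IL-17A, and 0.5 ng/mL of IL-1β. The IL-4/13 + Inf condition received all 5 cytokines. The design asks how type 2 cytokines act on fibroblasts alone and on top of an inflammatory stimulus.

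Serpins are protease inhibitors that present an exposed loop as bait, trap the protease that cuts it, and are used up in doing so. The mouse carries a row of Serpina3 genes on chromosome 12 in place of the human gene for α1-antichymotrypsin, and the mouse copies differ most in the bait loop. Serpina3n is a secreted inhibitor of leukocyte serine proteases such as granzyme B and cathepsin G and rises in acute-phase responses and in reactive astrocytes, and Serpina3g, also called Spi2A, stays inside the cell, where it inhibits lysosomal cathepsins and is known as an NF-κB target.

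The upstream sequence of the members is shown because 1 short slot in it holds a motif in some paralogs and not in others. Promoter entries of RefSeq (build GRCm38.p6), from 250 bases before to 50 bases after each annotated start, were matched for 5 of the 7 members. Serpina3h and Serpina3m had no entry. A window of 107 bases was cut around a stretch of 8 bases that the 5 promoters share, a choice made after the sequences were seen. Capitals mark the 9-base slot whose last 4 bases open that stretch, and every match to GGGNNNNNCC on either strand, the spacing of an NF-κB-like motif.
Serpina3c (chr12:104153944-104154050, minus strand): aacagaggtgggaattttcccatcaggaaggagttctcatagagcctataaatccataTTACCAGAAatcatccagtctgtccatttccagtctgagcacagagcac
Serpina3f (chr12:104214365-104214471, plus strand): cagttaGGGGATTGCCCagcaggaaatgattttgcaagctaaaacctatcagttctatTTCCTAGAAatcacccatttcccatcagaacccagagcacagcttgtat
Serpina3g (chr12:104236056-104236162, plus strand): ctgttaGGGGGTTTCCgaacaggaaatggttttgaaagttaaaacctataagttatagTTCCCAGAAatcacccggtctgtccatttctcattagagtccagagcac
Serpina3i (chr12:104262962-104263068, plus strand): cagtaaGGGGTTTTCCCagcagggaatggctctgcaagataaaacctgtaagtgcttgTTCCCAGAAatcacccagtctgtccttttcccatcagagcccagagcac
Serpina3n (chr12:104406527-104406633, plus strand): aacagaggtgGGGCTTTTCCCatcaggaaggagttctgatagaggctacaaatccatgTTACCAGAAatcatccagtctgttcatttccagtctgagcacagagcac
In Serpina3f, Serpina3g, and Serpina3i the slot matched TTCNNNGAA, the spacing of a STAT-like motif, whose letters read the same on both strands. The slots of Serpina3c and Serpina3n both differed from it by C3A, counted from 1 at the 5′ end of the motif, and did not match. Anywhere in the 300 bases, 8.30% of 32851 mouse promoters held this motif. The slot began 33 bases before the annotated start in Serpina3g, 102 in Serpina3i, 121 in Serpina3f, 123 in Serpina3n, and 120 in Serpina3c. The form with a spacer of 4 bases, TTCNNNNGAA, which is the STAT6-like spacing, was found in the promoter of Serpina3i as TTCCTAAGAA and in none of the other 4. It was held by 6.95% of all promoters.

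GGGNNNNNCC was found in the promoters of Serpina3f, Serpina3g, Serpina3i, and Serpina3n and not in that of Serpina3c. In Serpina3f and Serpina3i the 2 matches overlap and occupy a single place, and Serpina3n held 4 matches in 2 such places. This motif is common, and 50.8% of all promoters held it. Serpina3f has a second annotated start, whose promoter entry lay downstream of that place and held none. The windows of Serpina3c and Serpina3n were the most alike, with 93.5% of aligned bases identical. Serpina3f, Serpina3g, and Serpina3i were 82.2% to 84.7% identical to each other, and the remaining pairs were 75.0% to 82.0% identical. A match describes the letters only, and none of these data measured binding.

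Transcripts were compared as well. Over the longest annotated transcript of each gene in GENCODE M21, Serpina3f, Serpina3g, Serpina3h, and Serpina3i were 88.7% to 92.6% identical in each pair. Serpina3c and Serpina3m were 90.2% identical, and every other pair lay between 81.0% and 86.4%. These percentages leave gaps out. The longest run of identical bases was 135, between Serpina3g and Serpina3i.

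**Figure D1:**
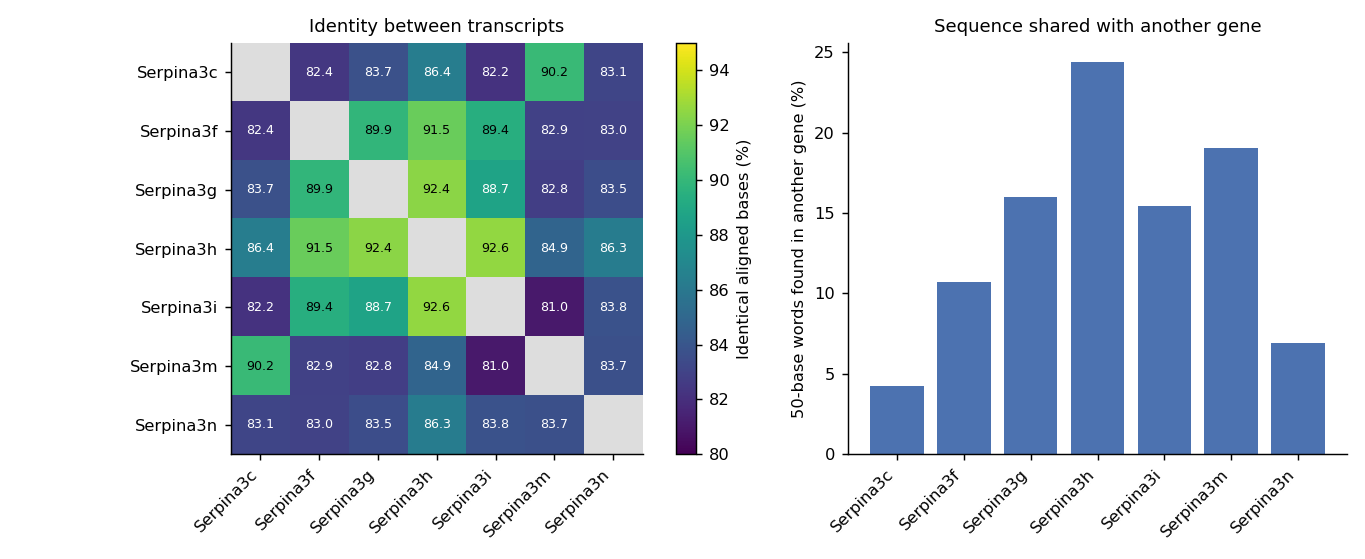
Identity between the longest transcripts of the 7 members in percent of aligned bases (left, color scale from 80) and the percentage of the 50-base words of each transcript that also occur in a transcript of another gene (right, bars from 0). The block of Serpina3f, Serpina3g, Serpina3h, and Serpina3i stands at 88.7% or more, and Serpina3h shares the most words at 24.4%.

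A read that falls on shared sequence cannot be assigned to 1 paralog, so the share of each transcript made of 50-base words found in another gene was counted. It was 24.4% for Serpina3h, 19.1% for Serpina3m, 16.02% for Serpina3g, 15.4% for Serpina3i, 10.7% for Serpina3f, 6.90% for Serpina3n, and 4.25% for Serpina3c. All of the genes that shared a word with a member were other Serpina3 genes. Serpina3h shared most with Serpina3i (18.3% of its words) and Serpina3g (15.3%), and Serpina3m shared most with Serpina3k (15.96%). How the counting treated such reads is not given in the sources used here, so counts of single paralogs in the Serpina3f, Serpina3g, Serpina3h, and Serpina3i set are less certain than their sum. The row named Serpina3h carries an Ensembl identifier that M21 does not hold, and its sequence and length here come from an M21 gene of the same symbol with another identifier. The row of that older identifier had 0 counts in all 12 libraries. RefSeq lists Serpina3h as a transcribed pseudogene.

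The libraries held 13446005 to 20775769 counts, of which the 7 members made up 9957 in all. Of the members, 6 passed the filter on low counts, and Serpina3m did not. All 11 fibroblast markers passed the filter, with summed levels of 16686 to 19450 CPM (counts scaled to the library size) in control libraries, 14345 to 15141 with IL-4/13, 13854 to 15280 with Inf, and 11781 to 12152 with IL-4/13 + Inf. The 12 hepatocyte markers summed to at most 0.259 CPM in any library, with Ttr, Fgb, Fgg, Cyp2e1, Hnf4a, and Serpina1a at 0. Adipocyte markers, led by Pnpla2, summed to 45.3 to 52.2 CPM in control, 55.3 to 60.6 with IL-4/13, 87.4 to 91.4 with Inf, and 77.6 to 83.3 with IL-4/13 + Inf, and 6 of 9 had at most 5 counts in every library, with Lep at 0. Macrophage and T cell markers summed to at most 9.90 and 3.42 CPM, with C1qa, C1qb, Cd3e, Cd3d, Cd8a, and Cd2 at 0. The fibroblast sum was lowest and the Serpina3 sum highest in the combination, while the fibroblast markers Dcn (103 CPM in control, 1440 in the combination) and Lum (2.25 and 13.5 CPM) were higher there. The part of the marker levels in the Serpina3 levels was not tested. In bulk RNA, more cells expressing a gene and more RNA per cell cannot be told apart.

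Serpina3g was the most abundant member by counts. Control libraries had 6, 3, and 6 counts. IL-4/13 libraries had 112, 122, and 101, Inf libraries 209, 340, and 293, and IL-4/13 + Inf libraries 1032, 943, and 854. The 4 groups did not overlap, and their order was the same as for most members, with control lowest, then IL-4/13, then Inf, and the combination highest. The group means were 0.296 ± 0.096 CPM in control, 7.11 ± 0.990 with IL-4/13, 16.1 ± 1.98 with Inf, and 53.9 ± 3.33 with IL-4/13 + Inf (SD, n = 3 libraries in each group, as for all levels given).

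Serpina3h, the close relative of Serpina3g, started lower. Its control libraries had 0, 2, and 2 counts, against 91, 47, and 54 with IL-4/13, 139, 218, and 154 with Inf, and 770, 724, and 561 with IL-4/13 + Inf. Mean levels were 0.081 ± 0.070, 3.96 ± 0.915, 9.73 ± 0.770, and 38.9 ± 1.55 CPM in that order. No library of a group overlapped another group in CPM.

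For Serpina3f the control libraries had 5, 3, and 2 counts. IL-4/13 gave 40, 48, and 29, Inf gave 123, 158, and 93, and IL-4/13 + Inf gave 380, 324, and 297. The means of 0.197 ± 0.083, 2.46 ± 0.562, 7.17 ± 1.347, and 19.0 ± 0.930 CPM followed the same order without overlap. Serpina3i had 0 counts in every control library. It had 14, 25, and 28 counts with IL-4/13, 65, 76, and 58 with Inf, and 259, 193, and 132 with IL-4/13 + Inf. Its 4 groups were again separate, at 0, 1.48 ± 0.666, 3.85 ± 0.421, and 10.9 ± 1.97 CPM. A count of 0 here allows up to 3 counts in a library, which is 0.179 CPM on average over the control libraries.

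Serpina3n, the inhibitor of granzyme B, departed from this order. Its control libraries had 2, 0, and 0 counts. The IL-4/13 libraries had 17, 8, and 30 counts and the Inf libraries 10, 18, and 18, so the 2 single conditions overlapped, at 1.21 ± 0.883 and 0.877 ± 0.213 CPM. With IL-4/13 + Inf the counts were 218, 189, and 139, or 10.3 ± 0.777 CPM, and every one of these libraries lay above every library of the other conditions.

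Serpina3c, the member closest to Serpina3n in its promoter, was the one that was not higher with Inf. Control libraries had 4, 4, and 0 counts, IL-4/13 libraries 20, 20, and 12, Inf libraries 0, 3, and 3, and IL-4/13 + Inf libraries 32, 38, and 29. Control and Inf overlapped, at 0.159 ± 0.138 and 0.109 ± 0.096 CPM. The conditions with IL-4/13 stood above them at 1.08 ± 0.207 CPM, and at 1.89 ± 0.280 CPM in the combination, without overlap between the 2. Serpina3m was at or below 3 counts in every library, with 0 in all control and IL-4/13 libraries, 0, 2, and 0 with Inf, and 2, 1, and 3 with IL-4/13 + Inf, so no fold is given for it.

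**Figure D2:**
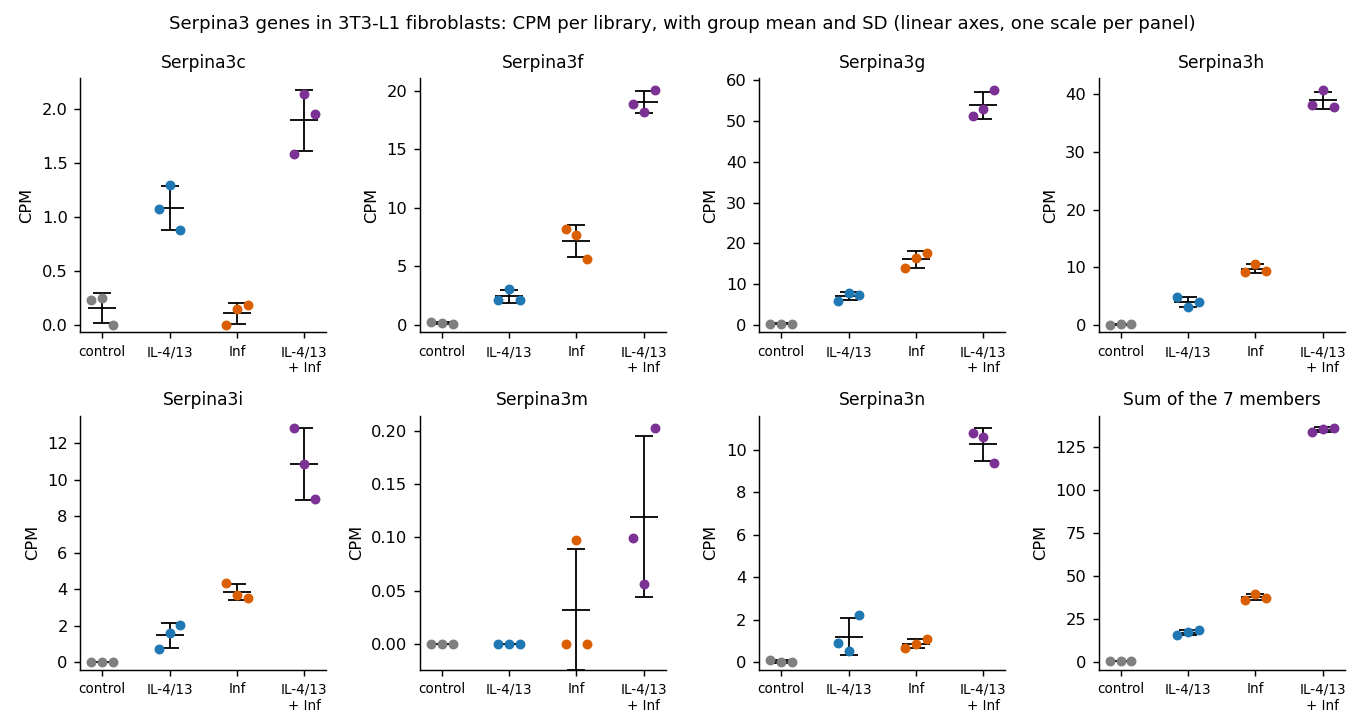
Level of each Serpina3 member and of their sum in CPM (linear axis, a scale of its own in each panel). Points are libraries, and black bars are the mean and SD of 3 libraries per condition. Serpina3f, Serpina3g, Serpina3h, and Serpina3i step up from control to IL-4/13 to Inf to the combination, Serpina3n stands at 10.3 CPM in the combination and near 1 CPM in both single conditions, and Serpina3c is raised in both conditions with IL-4/13 and lies at 0.109 CPM with Inf.

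Against control, IL-4/13 alone came with higher levels of all 6 tested members. Serpina3g was 23.99-fold higher, with a fitted log2 fold change of 4.53 ± 0.25 (SE), and Serpina3f was 12.5-fold higher (log2 3.58 ± 0.37). Serpina3c rose less, with a log2 fold change of 2.72 ± 0.58. Where a group held only a few counts, the ratio of pooled counts per depth is given with an exact 95% interval, which covers counting error only. This ratio was 6.85 for Serpina3c (3.23 to 16.7), 50.6 for Serpina3h (19.4 to 188), and 29.0 for Serpina3n (7.65 to 245). Serpina3i was at least 8.24-fold higher, taken against 3 counts in each control library. Without control replicate 1, the only control library with Serpina3n counts, the fitted log2 fold change of Serpina3n went from 4.64 to 7.30, and without IL-4/13 replicate 3 it was 3.97. All 6 of the 6 tested members were called upregulated, where 2.78% of the 14810 tested genes were called up and 2.57% down in this comparison. DESeq2 called 5, with no adjusted p for Serpina3c, and the fit of only these 6 libraries also called 5, since Serpina3n did not pass its filter. Because the members were selected on these libraries, nothing is read from the count. The median log2 fold change of the 6 was 4.58, or 4.05 with Serpina3i at its bound, beside -0.0014 over all tested genes.

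With Inf against control, 5 of the 6 were called upregulated. Serpina3g was 54.2-fold higher (log2 5.72 ± 0.21) and Serpina3f was 36.3-fold higher (log2 5.12 ± 0.29). Serpina3i was at least 21.5-fold higher. The pooled ratio was 123 for Serpina3h (47.9 to 454) and 22.2 for Serpina3n (5.81 to 189), whose fitted log2 fold change went from 4.24 to 6.91 without control replicate 1. The log2 fold change of Serpina3c was -0.45 ± 0.91, with a pooled ratio of 0.724 (0.207 to 2.38), an interval that spans falls and rises alike. In this comparison 16.3% of all genes were called up and 15.3% down. The median over the 6 members was 5.42, or 4.77 with Serpina3i at its bound, beside 0.0073 over all genes.

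Of the comparisons with control, IL-4/13 + Inf gave the highest ratios. Serpina3g was 182-fold higher (log2 7.46 ± 0.18), Serpina3f 96.5-fold (log2 6.53 ± 0.25), and Serpina3i at least 60.6-fold. Pooled ratios were 490 for Serpina3h (191 to 1798), 260 for Serpina3n (71.7 to 2153), and 11.8 for Serpina3c (5.76 to 28.1). The fitted log2 fold change of Serpina3n was 7.77, and 10.4 without control replicate 1. All 6 were called up, beside 13.4% of genes called up and 11.5% down. The comparisons with control share their 3 control libraries, in which the members together had 39 counts.

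Adding IL-4/13 to Inf came with a further rise, and all 6 were called upregulated. Serpina3f, Serpina3g, Serpina3h, and Serpina3i rested on 199 to 842 counts over the Inf libraries, Serpina3n on 46, and Serpina3c on 6. Serpina3h was 4.0-fold higher than with Inf alone (log2 1.99 ± 0.11), Serpina3g 3.36-fold (log2 1.74 ± 0.094), Serpina3i 2.83-fold (log2 1.51 ± 0.20), and Serpina3f 2.65-fold (log2 1.41 ± 0.14). Serpina3n rose more steeply, by 11.7-fold (log2 3.53 ± 0.29). Serpina3c was 17.3-fold higher by its means, with a pooled ratio of 16.3 (7.22 to 45.4). The background was 7.55% of genes called up and 7.00% called down. The median over the 6 members was 1.87, against -0.0098 over all genes.

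The reverse view, Inf added to IL-4/13, gave closely similar fold changes for 5 of the 6. IL-4/13 + Inf exceeded IL-4/13 alone by 7.59-fold for Serpina3g (log2 2.93 ± 0.11), 7.73-fold for Serpina3f (2.95 ± 0.16), 7.36-fold for Serpina3i (2.94 ± 0.24), 9.82-fold for Serpina3h (3.28 ± 0.13), and 8.48-fold for Serpina3n (3.14 ± 0.28). The value for Serpina3n was 3.81 on the log2 scale without IL-4/13 replicate 3. Serpina3c was 1.75-fold higher (0.79 ± 0.38), its groups did not overlap, and it was not called. This comparison called 5 members up, or 6 with Serpina3c when only its own 6 libraries were fitted, and it called 13.3% of all genes up and 11.0% down.

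Whether the response to IL-4/13 differed with Inf was read on 2 scales. On the log2 scale, the interaction subtracts the fold change of IL-4/13 over control from that of the combination over Inf. It was -2.17 ± 0.44 for Serpina3f, -2.79 ± 0.31 for Serpina3g, and -3.54 ± 0.51 for Serpina3h, each lower with Inf. For Serpina3i the fitted value of -6.08 depends on the prior count, since all control libraries were at 0. The values of -1.10 ± 1.19 for Serpina3n and 1.24 ± 0.99 for Serpina3c were not called. Of the 6 members, 4 were called lower and 0 higher, beside 1.59% of genes called lower and 1.52% called higher. Without control replicate 1 the interaction of Serpina3n was -3.77, that of Serpina3h was -2.96, and 4 were still called lower. Without IL-4/13 replicate 3 that of Serpina3n was -0.44.

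**Figure D3:**
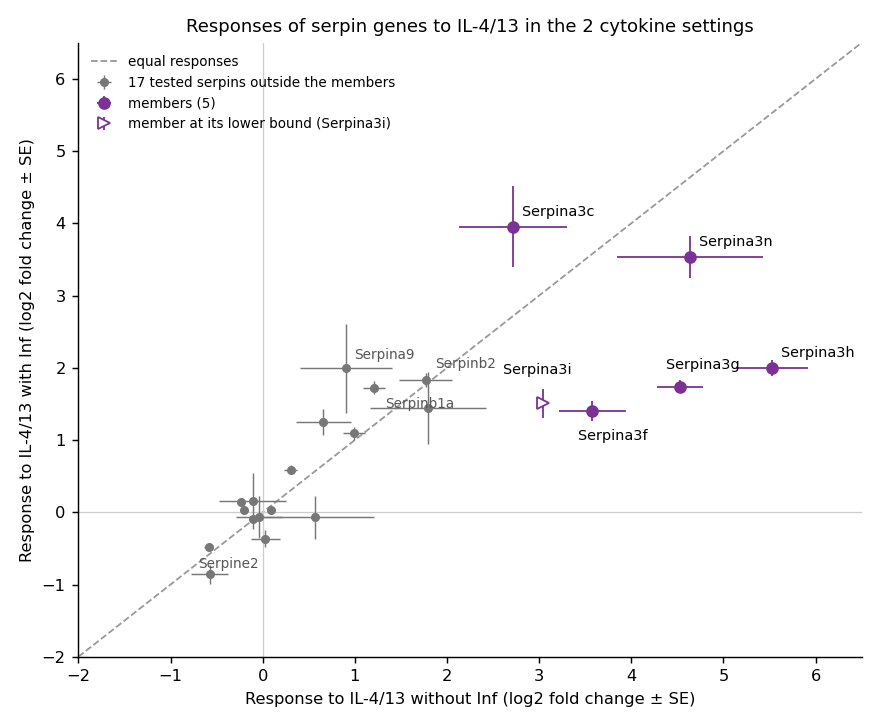
Response to IL-4/13 without Inf (IL-4/13 against control, x axis) and with Inf (IL-4/13 + Inf against Inf, y axis) as log2 fold changes with SE bars, for 6 members (purple) and 17 tested serpins outside the cluster (gray), with a dashed line of equal responses. Serpina3f, Serpina3g, Serpina3h, and Serpina3i (open triangle, at its lower bound of 3.04) lie below the line, and Serpina3n and Serpina3c lie nearer to it on either side.

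In linear CPM the direction was the opposite for Serpina3f, Serpina3g, Serpina3h, and Serpina3i. The rise over control in the combination was 53.6 CPM for Serpina3g, where the rises with IL-4/13 alone and Inf alone added up to 22.6 CPM, a ratio of 2.37. The combined rise was 2.87 times the added single rises for Serpina3h, 2.04 times for Serpina3f and Serpina3i, and 1.98 times for Serpina3c. Serpina3n had the highest ratio of the 6, at 5.08, with a rise of 10.2 CPM in the combination against 2.01 CPM for the single rises together. The difference between the combined and the added rises was 8.22 ± 0.69 CPM for Serpina3n and 31.1 ± 2.31 CPM for Serpina3g (SE from the SDs of the 4 groups). So the combination gave more than the sum of the single conditions and, for Serpina3f, Serpina3g, Serpina3h, and Serpina3i, less than the product of their folds.

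Summed over the 7 members, the counts do not depend on how reads were divided among these paralogs. Reads that were dropped, counted for more than 1 paralog, or given to genes outside the 7 are the exception. The sums per library were 17, 12, and 10 counts in control, 294, 270, and 254 with IL-4/13, 546, 815, and 619 with Inf, and 2693, 2412, and 2015 with IL-4/13 + Inf. In CPM these were 0.772 ± 0.187, 17.3 ± 1.47, 37.8 ± 1.72, and 135.04 ± 1.31. In the combination the SD of the sum was smaller than that of Serpina3g or Serpina3h alone. There the library with the highest level of Serpina3g, at 57.6 CPM, had the lowest level of Serpina3i, at 8.91 CPM, and the library with the lowest Serpina3g, at 51.2 CPM, had the highest Serpina3i, at 12.8 CPM. The combination exceeded Inf by 3.57-fold, IL-4/13 by 7.80-fold, and control by 175-fold in the sum, and its rise of 134 CPM over control was 2.51 times the 53.6 CPM of the single rises together.

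The composition of the sum moved less than its level. Serpina3g made up 41.0% ± 3.7 of the summed counts with IL-4/13, 42.4% ± 4.6 with Inf, and 39.9% ± 2.2 in the combination. Serpina3h made up 23.2% ± 7.0, 25.7% ± 0.96, and 28.8% ± 1.1. The IL-4/13 range of Serpina3h spanned both others, while Inf (24.9% to 26.7%) and the combination (27.8% to 30.0%) did not overlap. Serpina3f made up 14.3% ± 3.2 with IL-4/13, 19.0% ± 3.8 with Inf, and 14.1% ± 0.65 in the combination, and all 3 Inf shares lay above those of the combination (13.4% to 14.7%). Serpina3c made up 6.31% ± 1.41 of the sum with IL-4/13, 0.284% ± 0.25 with Inf, and 1.40% ± 0.20 in the combination, with no overlap. Serpina3n made up 6.85% ± 4.52 with IL-4/13, 2.32% ± 0.55 with Inf, and 7.61% ± 0.63 in the combination, where its lowest share of 6.90% was above the highest Inf share of 2.91%. The control sums of 10 to 17 counts were too small for shares.

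**Figure D4:**
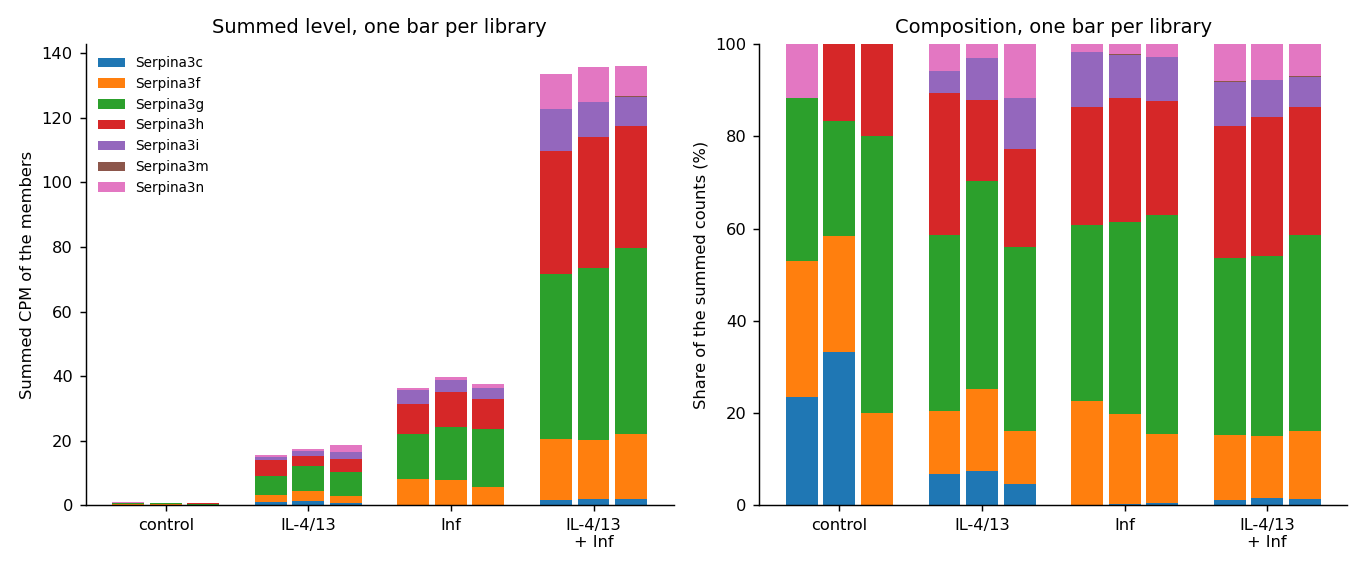
Summed CPM of the 7 members per library (left, stacked bars from 0) and the share of each member in percent (right), with 3 libraries per condition. The sum lies between 133.5 and 136.0 CPM in the combination, and Serpina3g holds 39.9% to 42.4% of the sum on average in the cytokine conditions while the shares of Serpina3c and Serpina3n are small with Inf.

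Levels of different members were compared per kilobase of the longest transcript. With IL-4/13, Serpina3g (3.94 ± 0.549 CPM per kb) and Serpina3h (3.20 ± 0.739) came first and overlapped, followed without overlap by Serpina3f (1.095 ± 0.25) and then by Serpina3i (0.671), Serpina3n (0.587), and Serpina3c (0.489), of which each overlapped the next. With Inf the order was Serpina3g (8.91 ± 1.099), Serpina3h (7.85 ± 0.621), Serpina3f (3.19 ± 0.599), Serpina3i (1.75 ± 0.191), Serpina3n (0.425 ± 0.103), and Serpina3c (0.049), where only the first pair of neighbors overlapped down to Serpina3c. In the combination Serpina3h (31.4 ± 1.25) and Serpina3g (29.9 ± 1.85) overlapped at the top. Serpina3f came next at 8.47 ± 0.414, and Serpina3n (4.98 ± 0.377) overlapped Serpina3i (4.94 ± 0.895). In control Serpina3g was highest at 0.164 CPM per kb, and every neighbor overlapped. The length of Serpina3h comes from the M21 gene with another identifier, so its place beside Serpina3g depends on that length.

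The other Serpina3 rows, just outside the named set, were nearly silent. Serpina3a, Serpina3j, and Serpina3l-ps had 0 counts in all libraries, Serpina3b had 1 count in all, and Serpina3d-ps and Serpina3k had 2 each. Serpina3k, which is made in quantity by the liver, shares 15.96% of the words of Serpina3m. The exception was Serpina3e-ps, a pseudogene with 45 counts, of which 23, 9, and 11 were in the IL-4/13 + Inf libraries, 0, 0, and 2 in the Inf libraries, and 0 in all others. Serpina3e-ps shares 4.27% of the words of Serpina3f and 5.13% of those of Serpina3g, and whether its counts came from those genes was not tested.

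Most serpins beyond the Serpina3 group were below the filter, which 17 of 53 such genes passed. IL-4/13 against control raised 4 of the 17 and lowered 1, where 2.78% of all genes were called up and 2.57% down. Serpinb2, an intracellular serpin also known as plasminogen activator inhibitor type 2, went from 0.675 ± 0.171 to 2.27 ± 0.838 CPM (log2 1.77 ± 0.29, adjusted p = 8.85e-05 by edgeR's quasi-likelihood test with Benjamini-Hochberg adjustment over all tested genes, as for all adjusted p given). Serpinb1a, an inhibitor of neutrophil elastase and cathepsin G, rose from 4.45 ± 0.092 to 10.3 ± 0.337 CPM (log2 1.21 ± 0.12, adjusted p = 1.09e-08). Serpinb9b (log2 0.99 ± 0.12, adjusted p = 3.32e-07) and Serpinb9, the intracellular inhibitor of granzyme B (log2 0.30 ± 0.072, adjusted p = 0.00576), also rose, and Serpine2, protease nexin 1, fell (log2 -0.59 ± 0.050, adjusted p = 4.19e-10).

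Inf against control raised 10 of the 17 and lowered 2, with 16.3% and 15.3% of all genes called. The largest rises were in Serpinb2, to 20.3 ± 2.24 CPM (log2 4.89 ± 0.19, adjusted p = 6.94e-19), Serpinb1b (log2 3.42 ± 0.44, adjusted p = 3.5e-07), Serping1, the C1 inhibitor of complement (log2 2.10 ± 0.15, adjusted p = 2.79e-11), and Serpinb6b (log2 1.89 ± 0.25, adjusted p = 2.4e-07). Serpinb8 and Serpinh1, the collagen chaperone Hsp47, fell, by 0.99 and 0.30 on the log2 scale, with adjusted p of 0.00297 and 2.52e-08 in edgeR's test.

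On top of Inf, IL-4/13 raised 7 of the 17 and lowered 3, where 7.55% of all genes were called up and 7.00% down. DESeq2 called 5 up in this comparison. Serpinb2 reached 71.7 ± 2.13 CPM (log2 1.83 ± 0.094, adjusted p = 1.19e-14). Serpinb1a reached 34.9 ± 2.86 CPM (log2 1.72 ± 0.092, adjusted p = 6.87e-15). Serpinb6b (log2 1.25 ± 0.18, adjusted p = 4.45e-06), Serpinb9b (1.09 ± 0.088, adjusted p = 1.02e-10), Serpinb9 (0.59 ± 0.066, adjusted p = 5.89e-08), Serpinb1c (1.44 ± 0.50, adjusted p = 0.0318), and Serpina9 (1.99 ± 0.61, adjusted p = 0.0153) rose as well. Serpina9, the 1 tested clade A serpin outside the Serpina3 group, stayed below 1 CPM on average in every condition. Serping1, Serpine2, and Serpini1 fell by 0.86, 0.48, and 0.37 on the log2 scale (adjusted p = 3.82e-05, 2.71e-09, and 0.0242 in edgeR's test). Against control, the combination raised 12 and lowered 3 of the 17, beside 13.4% of all genes called up and 11.5% down. Against IL-4/13 it raised 10 and lowered 1, beside 13.3% up and 11.0% down.

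In the interaction, edgeR called 0 of the 17 serpins outside the cluster lower with Inf, where 1.59% of all genes were. DESeq2 also called 0 of them.

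Leukocyte serine proteases and lysosomal proteases, classes that include known targets of these inhibitors, were taken as lists. Not every listed gene is a described target. Of 14 leukocyte serine proteases, among them Elane, Prtn3, Ctsg, and the granzymes, 1 passed the filter. It was Mcpt8, below 1 CPM on average in each condition, which was called once, higher in the combination than with IL-4/13 alone (log2 1.65 ± 0.59, adjusted p = 0.0262 by edgeR). Of the 14 cathepsins and related lysosomal proteases, 12 passed the filter. IL-4/13 lowered 1 of them, Ctsk, the collagen-cutting cathepsin K, from 10.4 ± 0.740 to 7.80 ± 0.700 CPM (log2 -0.41 ± 0.13, adjusted p = 0.0412). In that comparison 2.57% of all genes were called down.

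Inf raised 5 of the 12 and lowered 0, where 16.3% of all genes were called up and 15.3% down. Ctsl, cathepsin L, went from 893 ± 19.0 to 1596 ± 74.4 CPM (log2 0.84 ± 0.038, adjusted p = 1.17e-17). Ctsh rose by a log2 fold change of 1.32 ± 0.18 (adjusted p = 3.57e-07), and Ctsa, Ctsz, and Ctsb by 0.41, 0.40, and 0.38. IL-4/13 on top of Inf lowered 2, Ctsl to 1268 ± 22.9 CPM (log2 -0.33 ± 0.038, adjusted p = 8.75e-08) and Ctsa (-0.32 ± 0.045, adjusted p = 3.39e-06). It raised 0 of the 12, beside 7.55% of all genes raised and 7.00% lowered. In the combination, where Serpina3g was highest, the mean level of Ctsl lay between its Inf and control levels.

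Receptors and transcription factors linked to Serpina3 genes were taken as a list of 17, all of which passed the filter. Each gene was tested singly and the list as a whole was not. IL-4/13 alone raised 5 and lowered 0, where 2.78% of all tested genes were called up and 2.57% down. Nfkb1, which encodes an NF-κB subunit, went from 196 ± 7.09 to 450 ± 23.05 CPM (log2 1.20 ± 0.042, adjusted p = 2.55e-19), and Socs1, the feedback inhibitor of JAK kinases, from 13.5 ± 1.54 to 28.7 ± 1.82 CPM (log2 1.09 ± 0.088, adjusted p = 1.47e-10). Il6st, the shared gp130 receptor chain of the IL-6 family (log2 0.67 ± 0.047, adjusted p = 1.5e-11), Relb (0.36 ± 0.081, adjusted p = 0.00312), and Il6ra (0.32 ± 0.086, adjusted p = 0.0165) rose less. The IL-4 and IL-13 receptor chains Il4ra and Il13ra1 were not called in this comparison, at 52.4 ± 2.66 and 58.3 ± 1.34 CPM in control and 55.5 ± 2.12 and 60.3 ± 2.89 CPM with IL-4/13.

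Inf raised 15 of the 17 and lowered 0, beside 16.3% of all genes called up and 15.3% down. The acute-phase factors led, with Cebpd, a C/EBP factor, rising from 35.1 ± 2.81 to 330 ± 43.0 CPM (log2 3.23 ± 0.11, adjusted p = 2.7e-10). Socs3, which restrains gp130 signaling (log2 2.16 ± 0.059, adjusted p = 2.65e-23), Cebpb (1.69 ± 0.10, adjusted p = 3.48e-12), and Osmr, the oncostatin M receptor chain (1.54 ± 0.055, adjusted p = 1.18e-19), followed. Il4ra and Il13ra1 rose too, by log2 0.72 ± 0.057 and 1.12 ± 0.054 (adjusted p = 7.31e-12 and 4.19e-17 by edgeR). IL-4/13 on top of Inf then raised 4 and lowered 5, beside 7.55% of all genes called up and 7.00% down. Socs1 (log2 0.89 ± 0.081, adjusted p = 8.86e-10), Nfkb1 to 857 ± 4.96 CPM (0.88 ± 0.041, adjusted p = 3.08e-16), Il6st, and Lifr rose. Cebpb (-0.53 ± 0.092, adjusted p = 0.00018), Cebpd (-0.50 ± 0.093, adjusted p = 0.00256), Nr3c1, Osmr, and Stat3 fell. The mean levels of Nfkb1 had the same order over the 4 conditions as those of Serpina3g, while those of Cebpb and Cebpd were highest with Inf alone. The interaction called 6 of the 17 lower with Inf and 0 higher, beside 1.59% of all genes called lower and 1.52% higher.

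The genes outside the cluster whose log2 CPM most resembled each member over the 12 libraries were taken by Pearson's r among genes of at least 5 CPM in some condition. The libraries form 4 conditions of 3, so r mainly compares condition means, and it is given as a description. For Serpina3f, Serpina3g, Serpina3h, and Serpina3i, r ran from 0.982 to 0.992 and the lists overlapped. Xdh, xanthine dehydrogenase, Ccbe1, a secreted factor of lymphatic growth, and Lhfpl2 stood among the 5 nearest genes of all 4. Xdh went from 116 ± 6.73 in control to 246 ± 2.81 with IL-4/13, 327 ± 19.5 with Inf, and 507 ± 17.7 CPM in the combination. Prl2c2, a proliferin gene, was near 3 of the 4 and stood first for Serpina3g (r = 0.992). Il13ra2, the decoy receptor for IL-13, was near Serpina3f and Serpina3i and had the widest range of these genes, from 0.380 ± 0.103 in control to 6.78 ± 0.875, 57.6 ± 4.16, and 224 ± 7.74 CPM.

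Serpina3n had other neighbors. Serpinb1a, also a serpin, came first (r = 0.975), with 4.45, 10.3, 10.6, and 34.9 CPM in control, IL-4/13, Inf, and the combination, so that like Serpina3n it was at similar levels in both single conditions. Abcd2, Phlda1, Gm6093, and Nfkb1 followed, with r from 0.965 to 0.973. Among the genes nearest to Serpina3c were Pxdc1, Pawr, and Ankrd13c (r from 0.949 to 0.953). Pxdc1 had 8.81 ± 1.67 CPM in control, 22.6 ± 0.971 with IL-4/13, 8.08 ± 0.325 with Inf, and 21.6 ± 0.799 with both. These lists depended on the measure. With Spearman's correlation 0 of the 5 genes stayed in the list of Serpina3f, Serpina3g, Serpina3h, Serpina3i, or Serpina3n, and 2 stayed for Serpina3c.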

How the data were processed

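Bulk RNA-seq of 12 libraries of 3T3-L1 cells was analyzed, 3 in each of 4 conditions. The authors deposited raw counts per gene, made per the labels from stranded poly(A) libraries, and their processing notes name STAR, featureCounts, and GRCm39, with no versions. How reads that match several genes were counted is not given in the sources used here. All labels give the same batch. They do not say that replicates were separate cultures, so P values measure the spread between libraries, which may be technical.

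The 7 members and all gene lists were chosen with earlier results of these data known. Genes were filtered with filterByExpr of edgeR 4.0.16 (minimum count 10, minimum total 15), which left 14810 of 56941. CPM are counts over the total of tested genes times the TMM factor. The edgeR quasi-likelihood test with robust dispersion was fitted to all 12 libraries with a term per condition, and adjusted over all tested genes in each contrast by the Benjamini-Hochberg method. Genes were called at an adjusted p below 0.05 and an absolute log2 fold change over 0.25, the thresholds the study used for pseudobulk data. The study names DESeq2 for these libraries, and DESeq2 1.42.0 was an alternative. The models were tested on simulated data. Intervals of ratios are exact binomial (Clopper-Pearson). Genes were named by rule: all members, all other Serpina3 genes, in each list up to 4 called genes with the largest absolute change in each of 3 contrasts (control with IL-4/13, control with Inf, and Inf with the combination), and the 5 genes nearest to each member by Pearson's r of log2 CPM (prior count 2). Other genes of the lists that are named were chosen after their values were seen. Symbols not in the table, transcripts (GENCODE M21), and promoters (RefSeq) came from GRCm38 annotation, so no coordinates of counted genes are given. Protein sequences were not used here, and a few genes that these rules pick are not reported here.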

Additional observations from a re-analysis of the deposited data

Results flagged for a closer look

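A difference between the responses to IL-4/13 with and without Inf, by the interaction term of the edgeR fit, was called for 4 members and for genes of the fixed lists. The members are given as a description, since they were chosen on these libraries. The log2 difference was -2.17 for Serpina3f, -2.79 for Serpina3g, -3.54 for Serpina3h, and -6.08 for Serpina3i, whose value depends on the prior count because all control libraries were at 0.

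Among the 17 receptors and transcription factors, the signed log2 response to IL-4/13 was called lower with Inf for 6, where 1.59% of all genes were called lower. A lower value is not always a weaker rise. Nfkb1 rose in both settings, by 1.20 without Inf and 0.88 with Inf. Il4ra and Il13ra1 were not called without Inf (0.080 and 0.050) and were at -0.25 and -0.23 with Inf. Il6ra went from 0.32 to -0.10 and Relb from 0.36 to -0.036. Osmr went from a response of 0.16 without Inf to -0.30 with Inf, a log2 difference of -0.46 ± 0.077 (adjusted p = 0.000299 by edgeR). The difference was -0.42 ± 0.12 for Il6ra (adjusted p = 0.0441), -0.40 ± 0.11 for Relb (adjusted p = 0.0322), -0.33 ± 0.082 for Il4ra (adjusted p = 0.0165), -0.32 ± 0.059 for Nfkb1 (adjusted p = 0.000848), and -0.28 ± 0.076 for Il13ra1 (adjusted p = 0.0315). Ctsl, cathepsin L, differed by -0.29 ± 0.054 (adjusted p = 0.000905). Groups of 3 libraries were too small for a test of single outlying samples.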

How the results depend on the processing

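The counts of members called were the same with scaling by library size or by size factors of DESeq2, with no filter, with the replicate block, at a log2 fold change of 1, and with each library left out. They moved by 1 elsewhere. IL-4/13 against control called 5 in place of 6 up with DESeq2, where Serpina3c had no adjusted p, with only the libraries compared, where Serpina3n was not tested, and at a mean of at least 50 counts, where Serpina3c was not tested. That filter also left 5 in place of 6 for IL-4/13 + Inf against control and against Inf. IL-4/13 + Inf against IL-4/13 called 6 in place of 5 with only the libraries compared. With a library left out, the log2 ratio of the summed CPM ranged from 4.33 to 4.69 for IL-4/13, from 5.47 to 5.82 for Inf, and from 7.30 to 7.66 for IL-4/13 + Inf against control, and from -2.85 to -2.50 for the interaction. The values of 4.69, 5.82, 7.66, and -2.85 were those without control replicate 1. For the other serpins, IL-4/13 + Inf called 12 up against control (9 to 15 over all alternatives), 10 against IL-4/13 (8 to 13), and 7 against Inf (5 to 9, with 5 in DESeq2). The following counts moved by over 1.5 times. IL-4/13 against control called 1 down, and 2 with DESeq2, no filter, or only the libraries compared, 0 at a log2 fold change of 1, and 1 to 2 with a library left out, and called 2 up in place of 4 at a log2 fold change of 1. Inf against control called 2 down, 1 at a mean of 50 counts, and 0 at a log2 fold change of 1. IL-4/13 + Inf called 1 in place of 3 down against control and 0 in place of 3 down against Inf at a log2 fold change of 1, and 0 in place of 1 down against IL-4/13 at a mean of 50 counts. The interaction called 1 higher, 0 at a log2 fold change of 1, and 1 to 2 with a library left out. The cause was not tested, other than fewer genes tested or a higher threshold.

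With replicate number as a block, IL-4/13 against control called 6 members and 4 other serpins up, as without it. Samples of the same number did not deviate together (correlations of -0.15 to 0.054 in 18 pairs), and the main fit did not pair them. These correlations cannot show whether samples of the same number shared a culture. With a prior count of 0.5, 2 of the 5 genes nearest to Serpina3c stayed in its list. Depth limits Serpina3c, Serpina3m, and all comparisons with control, where the members had 0 to 6 counts per library.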
